A study of Homo sapiens with 9 samples.

Results

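The cytosolic ribosomal protein genes were taken as the rows whose symbol starts with RPL or RPS followed by a number, with an optional A, X or L, plus RPLP0, RPLP1, RPLP2 and RPSA. RPS27L, the RPS6 kinase genes and pseudogenes were left out. This gave 80 of 26929 rows, of which 49 belonged to the large subunit (RPL) and 31 to the small subunit (RPS). The cells were MV4-11, an established human acute myeloid leukaemia line, grown for 24 h with JPX-0700, with JPX-0750 or with the solvent DMSO. The series title describes both compounds as degraders of STAT3 and STAT5, and the sources used here give no doses. Each of the 3 groups had 3 libraries, made from total RNA with QuantSeq, a method that primes on poly(A) and reads the 3′ ends of transcripts. All libraries come from 1 cell line. The sources used here do not say whether replicates were separate cultures, and p-values measure the spread between these libraries.

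The cytosolic ribosome joins a large subunit, which holds the peptidyl transferase centre, to a small subunit, which decodes the mRNA. Each subunit needs its proteins in near equal numbers, and surplus copies that find no partner are degraded. Most ribosomal protein mRNAs begin with a 5′ terminal oligopyrimidine (TOP) tract, a C followed by a run of pyrimidines, through which mTOR and LARP1 control their translation. Several members carry small nucleolar RNA genes in their introns, and inherited loss of 1 copy of RPS19, RPL5 or RPL11 causes Diamond-Blackfan anaemia.

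The TOP tract is the feature of sequence that most members share, so the bases around the annotated start are shown for 8 of them. RPL41, RPS25 and RPL38 rose with a compound, RPSA and RPS7 were among the members with the lowest fold changes, and RPS6, RPL13A and RPLP0 are members of known role. Each line holds 10 bases before the start and 20 from it, read 5′ to 3′ on the gene's strand from RefSeq on GRCh38.p14, with the tract in capitals. The positions are chr12:56116623-56116652 on the plus strand for RPL41, chr11:119018324-119018353 on the minus strand for RPS25 and chr17:74203668-74203697 on the plus strand for RPL38. RPSA lies at chr3:39406710-39406739 and RPS7 at chr2:3575250-3575279, both on the plus strand. RPS6 lies at chr9:19380217-19380246 on the minus strand, RPL13A at chr19:49487598-49487627 on the plus strand and RPLP0 at chr12:120201092-120201121 on the minus strand. All of these windows span the start of the first exon.
RPL41: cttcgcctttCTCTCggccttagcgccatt
RPS25: gcagcgcttcCTTTTTgtccgacatcttga
RPL38: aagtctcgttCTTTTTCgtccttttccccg
RPSA: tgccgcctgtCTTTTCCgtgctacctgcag
RPS7: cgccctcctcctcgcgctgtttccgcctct
RPS6: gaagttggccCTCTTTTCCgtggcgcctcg
RPL13A: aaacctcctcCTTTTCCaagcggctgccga
RPLP0: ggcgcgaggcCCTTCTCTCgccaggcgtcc

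A tract of C followed by at least 4 bases that are each C or T, searched only at the annotated start and on the gene's strand, was present in 46 of the 63 members that had a start in the table (73.0%). Among the other tested genes with a start, 644 of 8882 had one (7.25%). It was present in 28 of 39 RPL genes and in 18 of 24 RPS genes, and its median length was 8 bases. RPS7 shows no tract when the search begins at this annotated start. Its window does hold a run of pyrimidines that begins before the start and crosses it, and tracts from other starts were not searched.

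Libraries held 739418 to 1852375 reads on genes with JPX-0700, 726043 to 1941860 with JPX-0750 and 2701317 to 6305586 with DMSO. In each group 1 library detected fewer genes than its partners, namely JPX-0700 replicate 3, JPX-0750 replicate 3 and DMSO replicate 1, with 9816 to 10407 genes against 13068 to 14616 in the others. Structured noncoding RNAs such as snoRNAs took 9.31% ± 0.896 of reads with JPX-0700, 12.3% ± 1.19 with JPX-0750 and 0.136% ± 0.114 with DMSO (SD, n = 3 each). Protein-coding genes took 81.6% of reads with JPX-0700, 78.8% with JPX-0750 and 98.4% with DMSO, so every treated library had another mix of RNA classes than every DMSO library. The 10 myeloid markers summed to 2557 to 4038 normalised counts with JPX-0700, 2023 to 4100 with JPX-0750 and 5653 to 8937 with DMSO. The 5 T and NK cell markers summed to 22.4 to 80.6 with JPX-0700, 3.33 to 68.2 with JPX-0750 and 32.3 to 52.1 with DMSO, and the 4 B cell markers to 8.34 to 36.9 with JPX-0700, 4.998 to 40.9 with JPX-0750 and 7.67 to 17.1 with DMSO. The 5 epithelial markers summed to 0 to 27.7 with JPX-0700, 18.2 to 24.0 with JPX-0750 and 28.5 to 53.7 with DMSO, and 3 of them, EPCAM, KRT19 and CDH1, were at 0 in all 9 libraries, as were the erythroid markers HBB and HBA2. The part of these shifts in the results that follow was not tested.

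Ribosomal protein mRNAs were among the most abundant in every library, and 44 to 56 of the 100 rows with the most reads were members. They took 16.2%, 14.7% and 22.0% of reads in the 3 JPX-0700 libraries, 15.8%, 14.7% and 17.0% with JPX-0750, and 16.6%, 19.97% and 14.0% with DMSO. The groups overlapped, with means of 17.6% ± 3.87 with JPX-0700, 15.9% ± 1.16 with JPX-0750 and 16.8% ± 3.01 with DMSO (SD, n = 3 each). Over protein-coding reads alone the means were 21.6% ± 4.51 with JPX-0700, 20.1% ± 1.48 with JPX-0750 and 17.1% ± 3.02 with DMSO, and the groups still overlapped. In bulk RNA a smaller number of cells and less RNA per cell cannot be told apart.

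Within the ribosomal protein reads, the summed share on RPL genes differed between treated and DMSO libraries. RPL genes took 58.9%, 60.1% and 55.4% of these reads with JPX-0700, 57.2%, 57.6% and 55.6% with JPX-0750, and 54.0%, 52.5% and 54.7% with DMSO. Each treated library lay above each DMSO library, and the gap was smallest for JPX-0700 replicate 3. The means were 58.1% ± 2.47 with JPX-0700, 56.8% ± 1.06 with JPX-0750 and 53.7% ± 1.14 with DMSO (SD, n = 3 each), a share that does not depend on the scaling between libraries. Leaving out RPS29, the member with the most reads in the DMSO libraries, gave 59.9% with JPX-0700, 58.7% with JPX-0750 and 56.5% with DMSO, again without overlap of treated and DMSO libraries. Leaving out the 4 members that rose, RPL23A, RPL41, RPL38 and RPS25, gave 55.5% ± 2.73 with JPX-0700, 55.4% ± 0.999 with JPX-0750 and 52.6% ± 0.992 with DMSO. Without them JPX-0750 libraries still lay above all DMSO libraries, whereas JPX-0700 replicate 3, at 52.6%, lay within the range of DMSO. RPL27A, an RPL gene that varied widely between libraries, had the largest mean share of ribosomal protein reads in each group. The RPL share without RPL27A was not computed, so the separation of treated and DMSO libraries is not shown to hold without that gene.

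**Figure D1:**
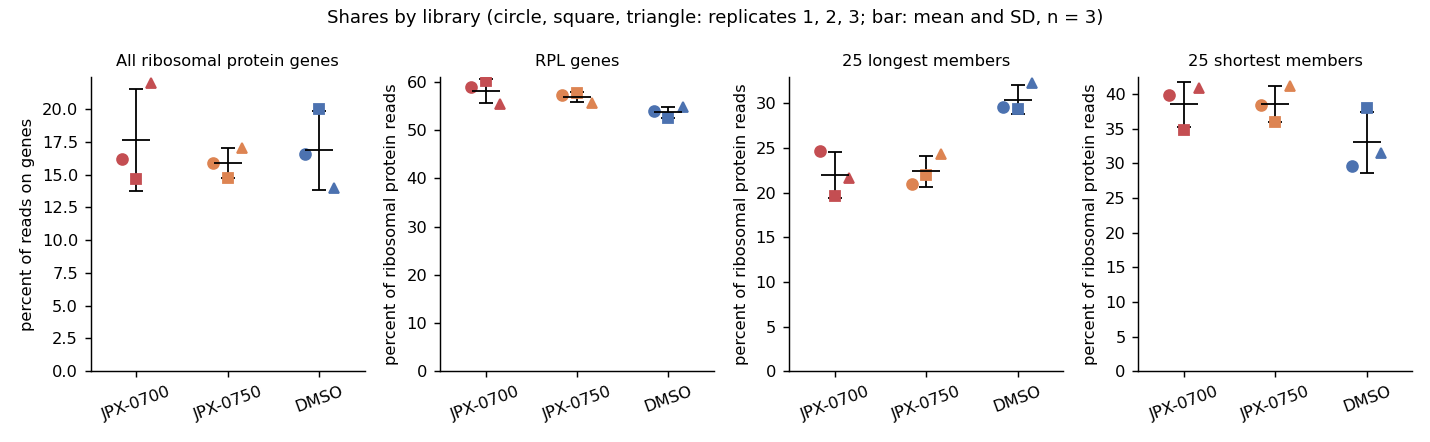
Share of reads on all ribosomal protein genes (percent of reads on genes), and the shares of ribosomal protein reads on RPL genes, on the 25 longest and on the 25 shortest tested members, for the 9 libraries in 3 groups, with 1 point per library and the mean and SD (n = 3). RPL genes took more, and the 25 longest members less, in every treated library than in every DMSO library, while the other panels overlap.

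A minimum mean of 5 normalised counts over the 9 libraries kept 75 members, 47 RPL and 28 RPS, among 12301 genes tested. With JPX-0700, 4 of the 75 rose and 0 fell at an adjusted p under 0.05 (limma), while 5.28% of all genes tested rose and 0.496% fell. With JPX-0750, 2 of the 75 rose and 0 fell, against 3.9% and 0.0732% of all genes. The share of members called was near the background for both compounds. At an unadjusted p under 0.05, 22 members were higher and 0 lower with JPX-0700 (background 13.5% and 6.03%), and 9 were higher and 0 lower with JPX-0750 (background 11.8% and 2.41%). Both comparisons use the same DMSO libraries. Leaving out JPX-0700 replicate 2 gave 8 members that rose with JPX-0700. Over all genes 784 were then called in either direction, against 710 in the reported fit. For JPX-0750 it was 0 without JPX-0750 replicate 1, JPX-0750 replicate 2 or DMSO replicate 1, and 1 without DMSO replicate 2. With voom on the recovered reads 14 members rose with JPX-0700 and 4 with JPX-0750. Voom also called more of all genes, 1299 with JPX-0700 and 945 with JPX-0750, against 710 and 489 in the reported fit. With libraries scaled to equal totals 2 members rose with JPX-0700 and 0 with JPX-0750, beside 657 and 361 of all genes called.

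**Figure D2:**
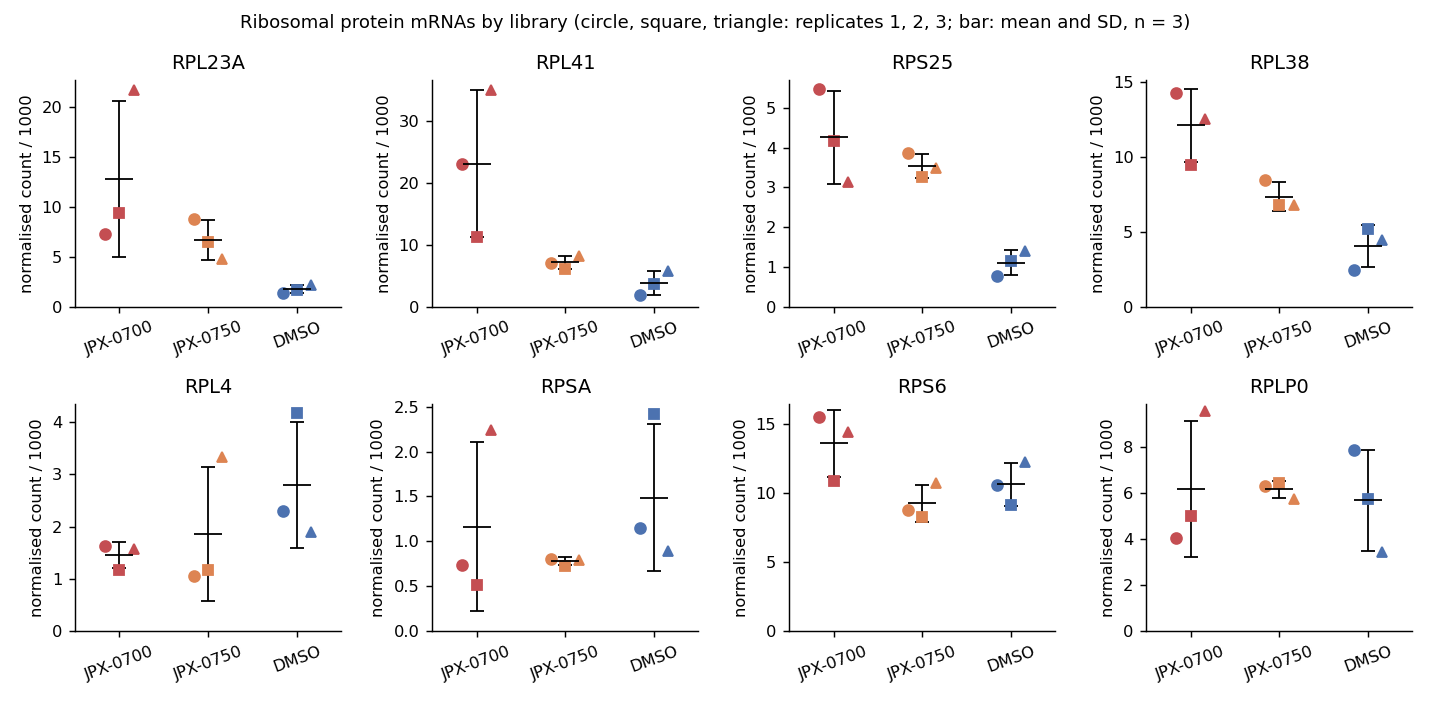
Normalised counts (shown divided by 1000) of the 4 members that rose and of RPL4, RPSA, RPS6 and RPLP0 in the 9 libraries, with 1 point per library and the mean and SD (n = 3) per group. RPL23A, RPL41, RPS25 and RPL38 lie higher in every treated library than in every DMSO library, and RPLP0 overlaps between all groups.

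RPL23A, a protein at the exit of the peptide tunnel where signal recognition particle docks, showed the largest change among the members with either compound. Its normalised counts were 7272, 9421 and 21740 with JPX-0700, 8767, 6489 and 4831 with JPX-0750, and 1421, 1652 and 2205 with DMSO. All 6 treated libraries lay above all DMSO libraries, and JPX-0700 replicate 3 was the highest. The log2 fold change was 2.72 ± 0.45 (SE), a fold of 6.60, with JPX-0700 (adjusted p = 0.000653) and 1.91 ± 0.45, a fold of 3.76, with JPX-0750 (adjusted p = 0.0175). The rise with JPX-0700 held under every setting tried. That with JPX-0750 was lost without JPX-0750 replicate 1 (adjusted p = 0.137), JPX-0750 replicate 2 (0.0785), DMSO replicate 1 (0.105) or DMSO replicate 2 (0.0582), and with libraries scaled to equal totals (0.0589). The gene lies at chr17:28719985-28724359 on the plus strand and has processed pseudogene copies, and the sources used here do not give how reads with several matches were counted.

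RPL41, the smallest ribosomal protein at 25 residues, stands at chr12:56116633-56117967. It had 23158, 11277 and 35051 normalised counts with JPX-0700, 7131, 6162 and 8243 with JPX-0750, and 1949, 3692 and 5854 with DMSO. The 3 groups did not overlap, with JPX-0700 highest, JPX-0750 between and DMSO lowest. Its rise with JPX-0700 was 2.59 ± 0.48 on the log2 scale, a fold of 6.01 (adjusted p = 0.00219), and it held under every setting tried. With JPX-0750 the log2 fold change was 1.03 ± 0.48 (adjusted p = 0.335). As a part of ribosomal protein reads, RPL41 took 4.19%, 2.31% and 3.09% with JPX-0700, 1.23%, 1.27% and 1.496% with JPX-0750, and 0.484%, 0.765% and 1.93% with DMSO, so on this scale JPX-0750 overlapped DMSO.

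RPS25 is a small subunit protein known for its part in translation from viral internal ribosome entry sites, and it was the small subunit member that rose. It had 5470, 4167 and 3132 normalised counts with JPX-0700, 3861, 3261 and 3499 with JPX-0750, and 780, 1152 and 1395 with DMSO. On the deposited scale treated libraries were all above DMSO libraries, and the libraries of the 2 compounds overlapped. As a part of ribosomal protein reads, RPS25 in JPX-0700 replicate 3 lay within the range of DMSO. The log2 fold change was 1.94 ± 0.39 with JPX-0700 (adjusted p = 0.00485) and 1.71 ± 0.39 with JPX-0750 (adjusted p = 0.0157). With libraries scaled to equal totals both calls were lost (adjusted p = 0.0914 with JPX-0700 and 0.148 with JPX-0750). The JPX-0750 call was also lost without JPX-0750 replicate 1 (0.1102), JPX-0750 replicate 2 (0.0740) or DMSO replicate 1 (0.116), and under TMM scaling (0.0568).

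RPL38, known in mice for its part in the translation of Hox mRNAs, rose with JPX-0700. Its normalised counts were 14291, 9470 and 12541 with JPX-0700, 8459, 6799 and 6815 with JPX-0750, and 2471, 5205 and 4466 with DMSO. As with RPL41, the groups stood apart on the deposited scale in the order JPX-0700, JPX-0750, DMSO. As a part of ribosomal protein reads the groups of RPL38 overlapped, and both compounds overlapped DMSO. The log2 fold change was 1.63 ± 0.40 with JPX-0700 (adjusted p = 0.0194) and 0.92 ± 0.40 with JPX-0750 (adjusted p = 0.286). That call ended when JPX-0700 replicate 1 (adjusted p = 0.0809), JPX-0700 replicate 3 (0.0573), DMSO replicate 1 (0.153) or the 3 libraries with the fewest genes (0.0653) were left out, and with TMM (0.0649) or total-sum scaling (0.157).

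Beyond these 4, most members had positive fold changes on the deposited scale that did not pass the test. With JPX-0700, 66 of 75 had a positive log2 fold change, and the median was 0.72, beside 0.14 over all genes tested. The median was 0.72 for RPL genes and 0.71 for RPS genes. With JPX-0750, 56 of 75 were positive, and the median was 0.39, beside 0.26 over all genes, with 0.39 for RPL and 0.36 for RPS. Libraries differed in their deposited totals, and with equal totals the medians became -0.01 for members and -0.52 for all genes with JPX-0700, and -0.15 for members and -0.25 for all genes with JPX-0750. Relative to all genes the members were thus 0.50 to 0.58 higher on the log2 scale with JPX-0700 under the deposited and the total-sum scaling. Without JPX-0700 replicate 3 that order turned round, with a median of 0.31 for members and 0.49 for all genes. Without JPX-0750 replicate 3 the JPX-0750 medians were 0.29 for members and 0.55 for all genes.

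**Figure D3:**
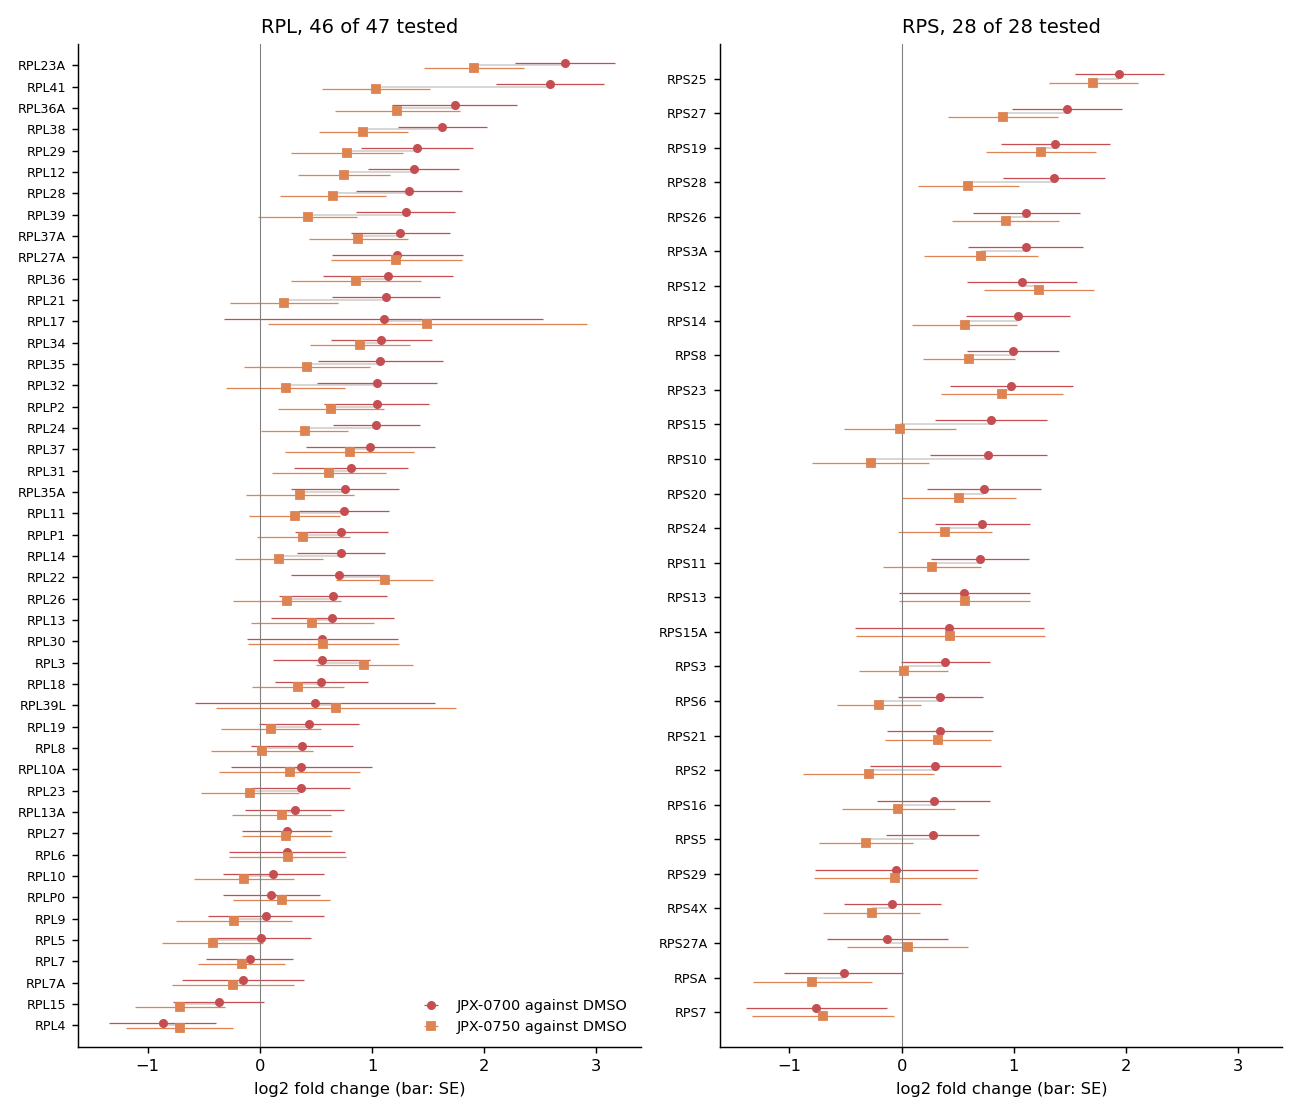
Log2 fold change (bar, SE) of 46 of the 47 RPL members tested and of the 28 RPS members tested, with JPX-0700 and with JPX-0750, each against DMSO, in order of the JPX-0700 value within each subunit. RPL23A and RPS25 lead their panels with both compounds, and RPL4 and RPS7 stand at the foot by the JPX-0700 value.

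Complete separation of the groups was counted as well, on the deposited scale only. All JPX-0700 libraries were above all DMSO libraries for 20 of 75 members, beside 16.5% of all genes, and below for 1, beside 10.3%. With JPX-0750 the members were 16 above and 2 below, beside 19.7% and 9.18%. On that scale the share of members above DMSO was thus higher than the background with JPX-0700 and close to it with JPX-0750. The counts depend on the scaling between libraries and were not repeated under another one. The member wholly below DMSO with JPX-0700 was RPL4, and those with JPX-0750 were RPL15 and RPSA. RPL15, a large subunit protein whose loss also causes Diamond-Blackfan anaemia, was named after its values were seen.

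Among the members with low fold changes, RPL4, RPSA and RPS7 did not pass the test. RPL4, a large subunit protein that lines the exit tunnel, had 1631, 1174 and 1573 normalised counts with JPX-0700, 1058, 1164 and 3330 with JPX-0750, and 2305, 4161 and 1898 with DMSO. Only JPX-0750 replicate 3 stood within the DMSO range. The log2 fold change was -0.86 ± 0.48 with JPX-0700 (adjusted p = 0.330) and -0.72 ± 0.48 with JPX-0750 (adjusted p = 0.525). Without the 3 libraries with the fewest genes RPL4 fell with JPX-0750, by 1.34 on the log2 scale (adjusted p = 0.0479). In that setting 3085 of all genes were called with JPX-0750. RPSA, a small subunit protein also known as a laminin receptor precursor, had 737, 511 and 2240 normalised counts with JPX-0700, 808, 728 and 798 with JPX-0750, and 1144, 2419 and 891 with DMSO. The JPX-0750 libraries were all below the DMSO libraries, and JPX-0700 replicate 3 lay within their range. Its log2 fold change was -0.52 ± 0.53 with JPX-0700 and -0.80 ± 0.53 with JPX-0750. RPS7, a small subunit protein that can bind MDM2, gave -0.76 ± 0.63 with JPX-0700 and -0.70 ± 0.63 with JPX-0750, and its libraries overlapped.

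Fold change ran with protein length across the members. Spearman's rho between coding length and log2 fold change over the 75 members was -0.57 with JPX-0700 and -0.55 with JPX-0750, as a description over genes that share the same libraries. Over the 10577 other protein-coding genes tested it was 0.11 with JPX-0700 and 0.15 with JPX-0750. The relation was present in RPL genes (-0.67 with JPX-0700 and -0.59 with JPX-0750, n = 47) and in RPS genes (-0.43 with JPX-0700 and -0.53 with JPX-0750, n = 28). It was -0.59 with JPX-0700 and -0.66 with JPX-0750 over the 46 members with no snoRNA gene in their span. Leaving out 1 library at a time gave -0.58 to -0.47 with JPX-0700 and -0.55 to -0.44 with JPX-0750. Without the 3 libraries with the fewest genes it was -0.41 with JPX-0700 and -0.40 with JPX-0750.

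**Figure D4:**
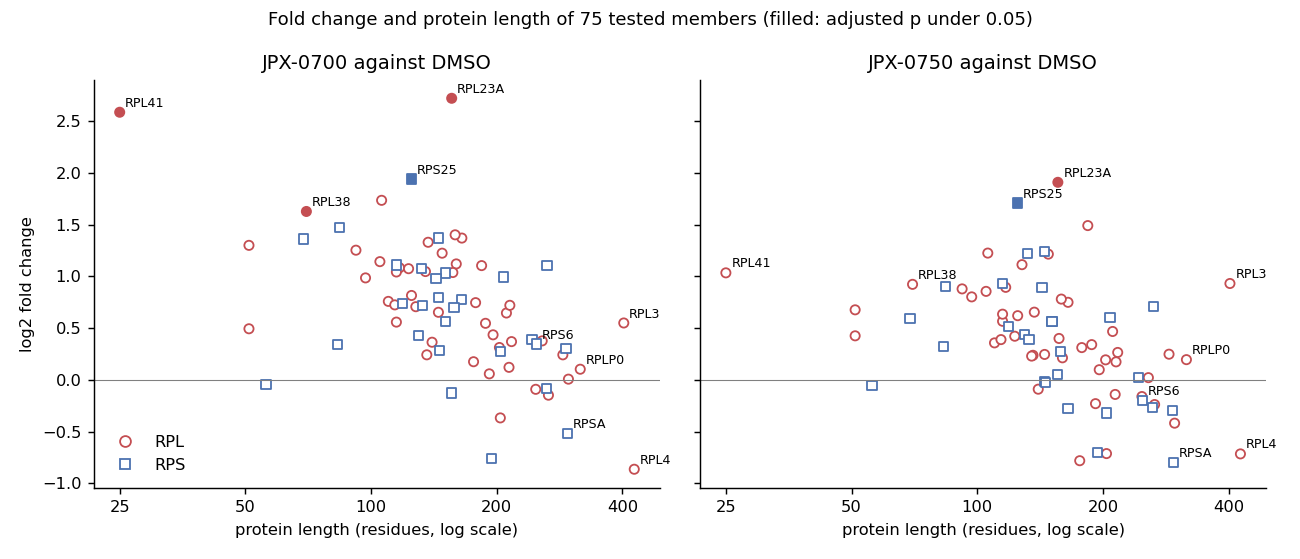
Log2 fold change of the 75 tested members against protein length (residues, log scale), for JPX-0700 and JPX-0750, each against DMSO, with RPL as circles, RPS as squares and filled marks for members past the threshold. Short proteins such as RPL41 (25 residues) stand at the top left and long ones such as RPL4 (427 residues) at the bottom right, with rho of -0.57 for JPX-0700 and -0.55 for JPX-0750.

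The same shift was seen within single libraries, where no scaling enters. The 25 longest tested members, of 192 to 427 residues, took 24.7%, 19.6% and 21.6% of ribosomal protein reads with JPX-0700, 20.9%, 22.0% and 24.3% with JPX-0750, and 29.6%, 29.4% and 32.3% with DMSO. No treated library reached the lowest DMSO library. The means were 21.97% ± 2.57 with JPX-0700, 22.4% ± 1.74 with JPX-0750 and 30.4% ± 1.64 with DMSO (SD, n = 3 each). The 25 shortest, of 25 to 132 residues, averaged 38.5% ± 3.25 with JPX-0700, 38.5% ± 2.60 with JPX-0750 and 33.0% ± 4.40 with DMSO, and these groups overlapped. Among the 25 shortest the median log2 fold change was 1.07 with JPX-0700 and 0.68 with JPX-0750, with 24 of 25 positive for each compound. Among the 25 longest it was 0.28 with JPX-0700 and -0.14 with JPX-0750, with 18 of 25 positive for JPX-0700 and 12 of 25 for JPX-0750. The sources used here do not give RNA integrity, and its part in this relation was not tested.

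The 44 tested members with a TOP tract had a median log2 fold change of 0.90 with JPX-0700 and 0.45 with JPX-0750. The 16 tested members whose start showed no tract had medians of 0.31 with JPX-0700 and 0.16 with JPX-0750. The ranges overlapped widely, from -0.52 to 2.59 with a tract and from -0.86 to 1.36 without one for JPX-0700. RPL23A, the member with the largest change, had no start in the table and is in neither set. Of the TOP mRNAs outside the ribosome, 2 of 16 tested rose with JPX-0700, 1 rose with JPX-0750 and 0 fell with either, beside 5.28% of all genes tested that rose with JPX-0700 and 3.9% with JPX-0750. Their median log2 fold change was 0.03 with JPX-0700 and -0.21 with JPX-0750. EEF1A1, the elongation factor that brings aminoacyl-tRNA to the ribosome, rose by 2.94 ± 0.56 on the log2 scale with JPX-0700 (adjusted p = 0.00295) and by 2.47 ± 0.56 with JPX-0750 (adjusted p = 0.0153). PABPC1, the poly(A) binding protein, rose by 2.03 ± 0.47 with JPX-0700 (adjusted p = 0.0126) and had 1.24 ± 0.47 with JPX-0750 (adjusted p = 0.191).

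The 6 members with the highest mean in DMSO were RPS29, RPL27A, RPS24, RPL37A, RPS19 and RPS27A, and none passed the test in the reported fit. RPL37A, a small zinc-binding protein of the large subunit, had 25453, 25201 and 63335 normalised counts with JPX-0700, 31714, 25039 and 23492 with JPX-0750, and 12835, 18812 and 12409 with DMSO. On the deposited scale its treated libraries were all above its DMSO libraries. The log2 fold change was 1.25 ± 0.45 with JPX-0700 (adjusted p = 0.119) and 0.88 ± 0.45 with JPX-0750 (adjusted p = 0.389). As a part of ribosomal protein reads RPL37A was also higher in every treated library, while as a part of all reads on genes both compounds overlapped DMSO. RPS19, a small subunit protein needed for 18S rRNA maturation, also separated on the deposited scale. Its log2 fold change was 1.37 ± 0.49 with JPX-0700 (adjusted p = 0.1197) and 1.24 ± 0.49 with JPX-0750 (adjusted p = 0.222). With voom on recovered reads RPL37A passed the threshold with JPX-0700 (adjusted p = 0.0132), and RPS19 passed it with both compounds (adjusted p = 0.0168 with JPX-0700 and 0.0457 with JPX-0750).

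The other 4 varied widely between libraries of 1 group. RPL27A, which sits near the exit tunnel, had 15982, 70005 and 54964 normalised counts with JPX-0700, 47985, 48508 and 25926 with JPX-0750, and 36301, 14440 and 9190 with DMSO. RPS29, a small zinc-binding protein, had 16397, 4457 and 60703 with JPX-0700, 15532, 10300 and 27273 with JPX-0750, and 12731, 39037 and 9832 with DMSO. For both genes the ranges of the groups overlapped, and the highest library was several times the lowest within JPX-0700 and within DMSO. Without the 3 libraries with the fewest genes RPL27A rose with JPX-0750, by 2.07 on the log2 scale (adjusted p = 0.0444, limma). That setting called 3085 of all genes with JPX-0750. RPS24, a small subunit protein, had log2 fold changes of 0.72 ± 0.42 with JPX-0700 and 0.39 ± 0.42 with JPX-0750, and RPS27A, which is made as a fusion with ubiquitin, had -0.13 ± 0.54 with JPX-0700 and 0.05 ± 0.54 with JPX-0750. Over the 75 members the highest library was 2.75 times the lowest as a median within JPX-0700, 1.69 times within JPX-0750 and 2.07 times within DMSO.

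Members with well known roles outside this list did not pass the test. RPS6, the substrate of S6 kinase and a common readout of mTOR signalling, had 15531, 10871 and 14467 normalised counts with JPX-0700, 8794, 8254 and 10777 with JPX-0750, and 10627, 9131 and 12248 with DMSO. Both compounds overlapped DMSO, at log2 fold changes of 0.35 ± 0.38 with JPX-0700 and -0.20 ± 0.38 with JPX-0750. RPL5 and RPL11, which with 5S rRNA bind and inhibit MDM2, had log2 fold changes of 0.01 ± 0.45 and 0.75 ± 0.41 for JPX-0700 against DMSO, and of -0.42 ± 0.45 and 0.31 ± 0.41 for JPX-0750 against DMSO. RPS14, whose gene is lost in the 5q deletion of myelodysplastic syndrome, had 1.03 ± 0.46 with JPX-0700 (adjusted p = 0.228) and 0.56 ± 0.46 with JPX-0750 (adjusted p = 0.620). RPLP0, the base of the stalk that recruits elongation factors, had 0.10 ± 0.43 with JPX-0700 and 0.20 ± 0.43 with JPX-0750, and RPL13A, which also silences inflammatory mRNAs in the GAIT complex, had 0.31 ± 0.44 with JPX-0700 and 0.19 ± 0.44 with JPX-0750. For RPLP0 and RPL13A the sign turned under total-sum scaling with both compounds, to -0.63 and -0.42 with JPX-0700 and to -0.34 and -0.35 with JPX-0750.

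The precision of these values was limited. The standard error of a member's log2 fold change had a median of 0.48 and a range of 0.38 to 1.42. The 95% interval lay wholly within a 2-fold change for 3 of 75 members with JPX-0700 and for 5 with JPX-0750. A gene that did not pass the test is therefore not shown to be unaltered.

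Few members were too low to test. RPS9 and RPS18, which every ribosome holds, were listed with 14 reads and 1 read in all 9 libraries together, and RPS9 was just below the minimum at a mean of 2.91 normalised counts. RPL3L, a paralog of RPL3 used in muscle, had 8 reads, and RPL10L, a paralog of RPL10 used in testis, had 1 read. Their low values do not show that the genes are silent, since the sources used here give no rule for reads shared with other copies or overlapping genes. RPL17, an exit tunnel protein, was the lowest member that passed the minimum, at a mean of 33.3. It had 41.5, 93.2 and 2.78 normalised counts with JPX-0700, 51.3, 68.2 and 8.33 with JPX-0750, and 14.4, 5.37 and 14.5 with DMSO. Replicate 3 of each compound stood below the highest DMSO library, and the log2 fold change was 1.10 ± 1.42 with JPX-0700 and 1.49 ± 1.42 with JPX-0750. Without the 3 libraries with the fewest genes RPL17 rose with both compounds, by 2.67 with JPX-0700 (adjusted p = 0.0106) and by 2.60 with JPX-0750 (adjusted p = 0.0116). That setting leaves out the low replicate 3 of each compound, and RPL17 had 127 reads over the 9 libraries. It called 3144 of all genes with JPX-0700 and 3085 with JPX-0750. RPL39L, a paralog of RPL39 that is high in testis, had 18.4, 22.4 and 175 with JPX-0700, 37.7, 36.4 and 80.0 with JPX-0750, and 26.04, 30.3 and 32.8 with DMSO, so its JPX-0700 mean rested on replicate 3. Its log2 fold change with JPX-0700 was 0.49 ± 1.07, and -0.52 without that library. Rows of 31 ribosomal protein pseudogenes together held 0.0286% of reads with JPX-0700, 0.0183% with JPX-0750 and 0.0155% with DMSO.

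Small nucleolar RNA genes lie within 29 of the members, and their rows had other values than their hosts. There were 60 such genes, 57 with a row and 52 tested, of which 23 rose with JPX-0700, 28 with JPX-0750 and 0 fell with either, beside 5.28% of all genes that rose with JPX-0700 and 3.9% with JPX-0750. Their median log2 fold change was 4.73 with JPX-0700 and 5.65 with JPX-0750. Many of these rows, such as SNORD14B and SNORD18A with 0 reads in DMSO, passed the minimum mean only through the treated libraries. The filter thus leans these counts and medians upward, and nothing is read from them. Host genes had median log2 fold changes of 0.70 with JPX-0700 and 0.47 with JPX-0750, and the 46 tested members with no snoRNA gene had 0.72 with JPX-0700 and 0.35 with JPX-0750. The snoRNA rows took 0.660% to 1.19% of reads with JPX-0700, 0.959% to 1.74% with JPX-0750 and 0.00208% to 0.00468% with DMSO.

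Among the members that rose, RPL23A holds snoRNA genes. SNORD42A, a C/D box RNA that guides rRNA methylation, had 1189, 641 and 878 normalised counts with JPX-0700, 928, 859 and 633 with JPX-0750, and 0.898, 1.15 and 4.31 with DMSO. It rose by 8.30 with JPX-0700 (adjusted p = 1.27e-07) and by 8.16 with JPX-0750 (adjusted p = 1.54e-07) on the log2 scale. SNORD42A too passed the minimum mean through its treated libraries, with a DMSO mean of 2.12. The other snoRNAs of RPL23A, SNORD42B, SNORD4A and SNORD4B, did not pass the test, with 6 to 53 reads over 3 libraries of a compound and 1 to 3 reads over the DMSO libraries. Since snoRNA and host lie on overlapping coordinates and the counted strand is not given, some of the reads of such a pair could be assigned to either. That part was not tested. RPL41, RPS25 and RPL38 hold no snoRNA gene.

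JPX-0750 was also set directly against JPX-0700, with no dose known for either. At an adjusted p under 0.05 (limma), 0 of 75 members and 0 of 12301 genes passed, a background of 0%. At an unadjusted p under 0.05, 198 genes were higher (1.61%) and 197 lower (1.6%) over all genes, and among the members 0 were higher and 1, RPL41, was lower. RPL41 had a log2 fold change of -1.55 with a 95% interval of -2.56 to -0.54 (adjusted p = 0.848). On the deposited scale all JPX-0750 libraries were above all JPX-0700 libraries for 0 members (background 4.72%) and below them for 6 (background 3.63%). Those 6 were RPL24, RPL38, RPL39, RPL41, RPS6 and RPS10. RPL24 and RPL39, both large subunit proteins, were named after their values were seen.

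The median log2 fold change of members was -0.33 between the compounds, beside 0.10 over all genes tested, with 13 positive and 62 negative. Without JPX-0700 replicate 3 that order turned round, with a median of 0.02 for members and -0.14 for all genes. With the 3 libraries that detected the fewest genes left out, the medians were 0.02 for members and 0.04 for all genes. Without JPX-0700 replicate 2 the median of members was -0.66. RPS10, a small subunit protein near the mRNA entry and a target of ribosome quality control, had 510, 568 and 575 normalised counts with JPX-0750 and 760, 812 and 2390 with JPX-0700. The difference was -1.05 ± 0.52, and JPX-0700 replicate 3 was the highest of these libraries. The members with the highest values were RPL22, an RNA-binding protein lost in some T-cell leukaemias, at 0.41 ± 0.43, RPL17 at 0.39 ± 1.42 and RPL3, which shapes the peptidyl transferase centre, at 0.38 ± 0.43. The 95% interval of the difference lay within a 2-fold change for 3 of the 75 members and within a 4-fold change for 70, so the missing calls do not show that the compounds act alike. RPL share and long-member share overlapped between the compounds, and rho between coding length and fold change was 0.13 over the members, with 0.33 in RPL genes and -0.26 in RPS genes.

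Genes that work beside the members were mostly without a call. FAU, a ribosomal protein outside the symbol rule that is made as a fusion with a ubiquitin-like protein, had log2 fold changes of 0.44 ± 0.44 with JPX-0700 and 0.18 ± 0.44 with JPX-0750. RACK1, a scaffold on the small subunit, had -0.22 ± 0.40 with JPX-0700 and -0.61 ± 0.40 with JPX-0750, and neither gene passed the test. Of 5 paralogs outside the rule, 15 regulators of TOP translation and 5 escorts of single ribosomal proteins, 0 passed with either compound. Of 9 genes of ribosome rescue, 2 rose with JPX-0700 and 1 with JPX-0750, beside the same 5.28% of all genes with JPX-0700 and 3.9% with JPX-0750. With so few genes nothing is read from these counts, and the genes are given by their values. ASCC3, the helicase that splits collided ribosomes, rose by 1.99 ± 0.57 with JPX-0700 (adjusted p = 0.0479) and by 2.56 ± 0.57 with JPX-0750 (adjusted p = 0.0128). TCF25, a part of the complex that clears stalled peptides, rose by 1.94 ± 0.50 with JPX-0700 (adjusted p = 0.0264) and had 1.78 ± 0.50 with JPX-0750 (adjusted p = 0.0547).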

How the data were processed

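The authors deposited 1 table of normalised counts for 9 libraries. Per the submitters' processing notes the tools were FastQC 0.11.9, STAR 2.4.2a, SAMtools 1.4, featureCounts 2.0.3 and DESeq2, with the build GRCh38; the sources used here give neither the strand counted nor the treatment of multiply mapped reads. Within each library 100% of nonzero values equalled the smallest one times a whole number (tolerance 1e-06), which gave the recovered reads used for depth and shares. Such reads carry no molecular identifiers. A read marks a transcript end, so values were not divided by length.

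limma 3.58.1 (R 4.3.3) fitted log2(normalised count + 1) over all 9 libraries with a variance trend and 6 residual degrees of freedom, for genes with a mean of at least 5. Tests were two-sided, Benjamini-Hochberg adjusted over 12301 genes, with 0.05 as the threshold; "rose" and "fell" refer to it. The steps were tested on simulated data. Adding 1 lowers the fold of weak genes. Shares got no test.

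Members and lists were chosen with earlier results of these data known. Named were members past the threshold, the 6 highest in DMSO, the 3 highest and 3 lowest fold changes per comparison, and members of known role; a few named items are not reported here. Coding lengths came from the principal transcript (APPRIS tag) in GENCODE v29, and starts and spans from RefSeq. The reported fit has no pairing. Deviations of same-numbered JPX-0750 and JPX-0700 libraries correlated at 0.129, 0.171 and 0.190, so a replicate block was tried as an alternative; JPX-0750 replicate 1 with JPX-0700 replicate 2 gave 0.153, and numbers did not pair with DMSO.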

Additional observations from a re-analysis of the deposited data

How the results depend on the processing

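The rise of RPL23A and RPL41 with JPX-0700 stayed past the threshold under each setting run. Members that rose with JPX-0700 numbered 4, with 2 under total-sum scaling, 14 under voom and 3 to 8 with 1 library left out. Those with JPX-0750 numbered 2, with 0 under total-sum scaling, 1 under TMM, 4 under voom and 0 to 2 with 1 library left out. Without the 3 libraries with the fewest genes 6 members rose and 0 fell with JPX-0700, beside 3144 of all genes called. In that setting 8 members rose and 1, RPL4, fell with JPX-0750, beside 3085 of all genes called. Over all genes the calls with JPX-0700 numbered 710, with 389 (without DMSO replicate 2) to 1018 with 1 library left out, 422 without DMSO replicate 1, 3144 without those 3 libraries and 1299 under voom. With JPX-0750 they numbered 489, with 254 (without JPX-0750 replicate 1) to 1143 (without JPX-0700 replicate 3), 270 without JPX-0750 replicate 2, 308 without DMSO replicate 2, 3085 without the 3 libraries, 945 under voom and 837 when only the groups compared were fitted. The causes were not tested. A replicate block changed no call of a member, with 694 genes called for JPX-0700, 473 for JPX-0750 and 0 between the compounds, also 0 with the block among treated libraries alone. The share of reads on members was 21.6% with JPX-0700 and 20.1% with JPX-0750 over protein-coding reads, and the RPL share without RPS29 was 58.7% with JPX-0750 and 56.5% with DMSO.

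Signs turned for members that had not passed the threshold. Under total-sum scaling JPX-0700 gave -0.42 for RPL13A, -0.024 for RPL22, -0.18 for RPL3, -0.22 for RPL39L, -0.72 for RPL5, -0.63 for RPLP0, -0.011 for RPS24 and -0.38 for RPS6, and JPX-0750 gave -0.23 for RPL11, -0.35 for RPL13A, -0.34 for RPLP0, -0.15 for RPS24 and -0.48 for RPS27A. Under TMM JPX-0700 gave -0.30 for RPL5 and -0.20 for RPLP0, and JPX-0750 gave -0.069 for RPL13A, -0.067 for RPLP0 and -0.21 for RPS27A. Without the 3 libraries with the fewest genes JPX-0700 gave -0.13 for RPL13A, -0.61 for RPL39L and -0.45 for RPL5, and the compounds differed by -0.071 for RPL17. With 1 library left out, JPX-0700 values ran from -0.14 to 0.59 for RPL13A, -0.52 to 1.07 for RPL39L, -0.46 to 0.38 for RPL5, -0.26 to 0.38 for RPLP0, -0.59 to 0.51 for RPS27A and -0.99 to 0.89 for RPS29. JPX-0750 values ran from -0.013 to 0.39 for RPL13A, -0.13 to 0.47 for RPLP0, -0.38 to 0.44 for RPS27A and -0.45 to 0.55 for RPS29. Between the compounds they ran from -0.97 to 1.35 for RPL17 and -0.0077 to 0.69 for RPL22.

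Voom on recovered reads, the fit of the compared groups alone and the block among treated libraries were chosen after seeing the data. The planned edgeR and DESeq2 fits were not run. Depth, lower in treated than in DMSO libraries, limits weak members such as RPL17.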
